A study of Mus musculus with 2 samples.

Results

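Serpins are a family of protease inhibitors that share one fold, in which an exposed loop acts as bait: a target protease cuts the loop, the serpin snaps into a new shape and the protease is trapped. A few members have lost this activity and serve as hormone carriers, collagen chaperones or regulators. Mouse serpins fall into clades lettered a to i. Clade a holds mostly plasma proteins made by the liver, such as alpha-1-antitrypsin, and clade b holds proteins that stay mainly inside cells, where several guard against granule and lysosomal proteases. The family was taken as every gene of the deposited table whose symbol is Serpin followed by a clade letter from a to i, a number and an optional letter. This gave 64 genes of 55468 rows, with 28 in clade b, 25 in clade a and 11 in the other clades. The members were chosen by name, but the family itself was selected on the measured FPKM values, in which clade b genes had been seen to be higher in resistant cells, so the difference between the libraries is given as a description, with no test.

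KPC2 is a mouse pancreatic cancer cell line. The series holds 1 library of gemcitabine-resistant KPC2 cells, grown long-term in 260 ng/mL gemcitabine, a nucleoside drug that blocks DNA synthesis, and 1 library of wild type KPC2 cells that were not treated. Both were grown in the same medium, and the labels give no genotype, clone or passage. Every value below therefore stands for 1 library, no difference was tested between the conditions, and drug in the medium cannot be told apart from a lasting state of the cells. Levels were read as FPKM, fragments scaled to transcript length and to the size of the library. For a transcript of 2 kb, 1 FPKM rested on about 42.7 fragments in the resistant library and 44.1 in the wild type library, judged from the steps of low values. Intervals in square brackets are exact 95% Poisson intervals of the fragments behind a level. They cover counting error only, without the spread between cultures. A gene was called measured if either library reached 1 FPKM, and differences are log2((resistant FPKM + 1)/(wild type FPKM + 1)), where 1 in size means 2-fold. That scale understates differences of low genes. In bulk RNA, fewer cells of a type and less RNA per cell cannot be told apart. The cytokeratin genes of ductal epithelium were high in both libraries (Krt8 at 1722 FPKM in resistant and 1176 FPKM in wild type cells), and 9 of 12 ductal markers were measured. Epcam, Cftr and Onecut1 stayed below 1 FPKM in both libraries. None of 12 fibroblast, 10 islet or 10 endothelial and platelet markers reached 1 FPKM.

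Of the 64 serpin genes, 11 were measured. A ratio of 2-fold or more was seen in favour of resistant cells for 6 of them and of wild type cells for 1, and the other 4 differed by less. Among all 12193 measured genes these classes held 7.9% and 8.37%. The log2 ratio was above 0 for 9 of the 11, against 50.8% of all measured genes. As the family was selected on this contrast, nothing is read from these counts. The median log2 ratio of the 11 genes was 1.20, against 0.02 over all measured genes. Serpinb9b, Serpinb1a, Serpinb8, Serpinb6c and Serpinb7 were among the higher genes, and the 1 lower was Serpinh1. Serpinb6a, Serpinb6b, Serpinb9 and Serpinb5 lay within 2-fold. The other 53 serpins were below 1 FPKM in both libraries, and 32 of them were listed at 0 in both. The authors' deposited table carries a test of its own between both libraries, in which 14 serpins were tested and 2 were called, among them Serpinb9b with a q-value of 0.0495. Over all genes tested in the authors' deposited table, 0.404% were called. The calls come from the values on which the family was selected, so nothing is read from their number. With 1 library per group, the q-values do not measure the spread between cultures.

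**Figure D1:**
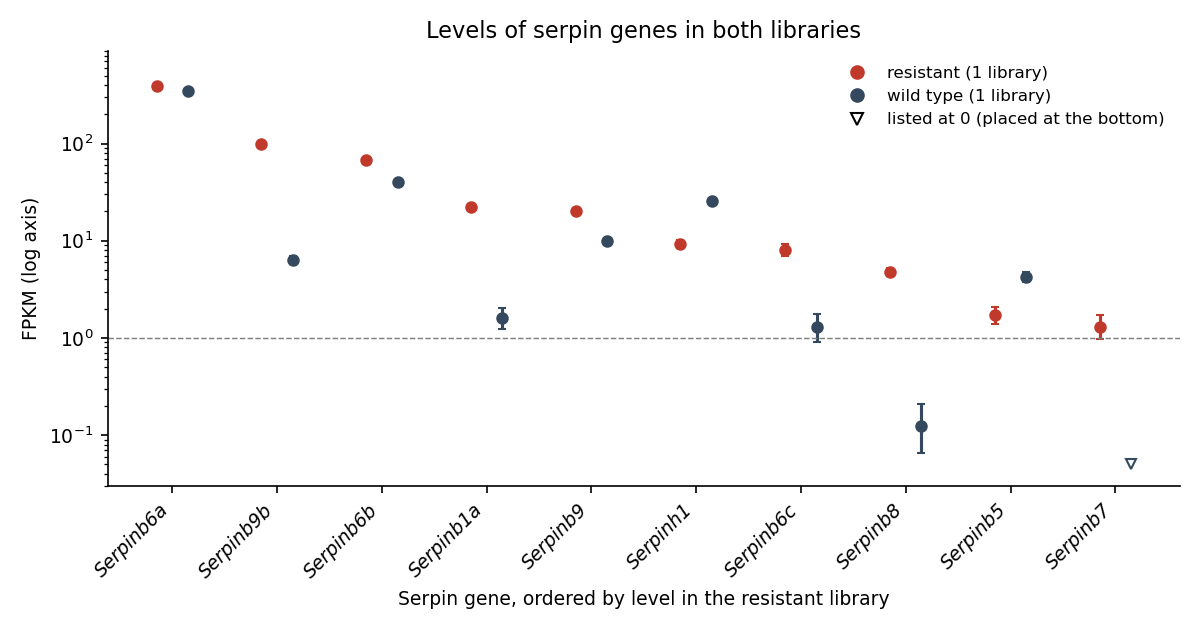
FPKM (log axis) of 10 of the 11 measured serpin genes, with the resistant library (red) left of the wild type library (dark blue) for each gene, 1 library per group. Bars are exact 95% Poisson intervals of the fragments, the open triangle marks Serpinb7, listed at 0 in wild type cells, and the dashed line is 1 FPKM. Serpinb6a is highest in both libraries, and the red points of Serpinb9b, Serpinb1a and Serpinb8 stand furthest above their dark blue ones among the plotted genes above 0 in both libraries.

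Sequence upstream of the start is shown for 5 members, because they hold the contrasts described below: Serpinb9b and Serpinb9 are neighbouring copies with unlike differences, Serpinb7 and Serpinb8 were at or near 0 in wild type cells, and Serpinb5 is the clade b gene with the opposite direction. The sequences are from RefSeq on GRCm38.p6, on the strand of the gene, 5′ to 3′, and each holds the 250 bases before the start that RefSeq annotates, which can differ from the GENCODE gene ends given below. The windows are chr13:33027164-33027413 for Serpinb9b, chr13:33004291-33004540 for Serpinb9, chr1:107422439-107422688 for Serpinb7, chr1:107589756-107590005 for Serpinb8 and chr1:106860925-106861174 for Serpinb5, all on the + strand. They were chosen after the values had been seen. Capitals mark matches to the motifs named further on, and the windows of Serpinb9b and Serpinb9 hold none.
Serpinb9b: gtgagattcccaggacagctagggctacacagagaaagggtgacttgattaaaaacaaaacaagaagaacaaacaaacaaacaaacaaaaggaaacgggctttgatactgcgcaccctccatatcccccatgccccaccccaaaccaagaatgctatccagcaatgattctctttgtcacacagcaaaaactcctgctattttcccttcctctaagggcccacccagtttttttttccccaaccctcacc
Serpinb9: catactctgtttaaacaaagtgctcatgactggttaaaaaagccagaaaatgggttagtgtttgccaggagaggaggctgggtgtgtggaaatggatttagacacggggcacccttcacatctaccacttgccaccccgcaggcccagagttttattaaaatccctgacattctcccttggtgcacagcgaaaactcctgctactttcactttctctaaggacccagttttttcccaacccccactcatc
Serpinb7: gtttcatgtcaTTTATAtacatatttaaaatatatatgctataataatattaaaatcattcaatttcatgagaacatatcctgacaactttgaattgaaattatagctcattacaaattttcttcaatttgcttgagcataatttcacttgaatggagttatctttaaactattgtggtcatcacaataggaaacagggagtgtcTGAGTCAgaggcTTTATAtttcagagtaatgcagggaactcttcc
Serpinb8: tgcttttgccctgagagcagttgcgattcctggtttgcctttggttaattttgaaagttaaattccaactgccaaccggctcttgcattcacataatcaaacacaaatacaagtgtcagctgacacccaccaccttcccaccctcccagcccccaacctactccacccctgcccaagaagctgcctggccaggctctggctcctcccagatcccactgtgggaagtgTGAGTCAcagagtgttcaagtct
Serpinb5: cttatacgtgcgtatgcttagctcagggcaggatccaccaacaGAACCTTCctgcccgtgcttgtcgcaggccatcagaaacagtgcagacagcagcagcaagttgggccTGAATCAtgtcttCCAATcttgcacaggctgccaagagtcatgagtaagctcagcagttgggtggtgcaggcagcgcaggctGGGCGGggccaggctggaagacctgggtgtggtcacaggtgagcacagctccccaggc

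Serpinb9 and its copies form the largest named group of clade b in the mouse. Serpinb9 itself, on chromosome 13 at 33003250 to 33017957 of GRCm38, blocks granzyme B, the protease with which killer lymphocytes trigger death in their targets, and also protects the lymphocytes themselves. In these data Serpinb9 stood at 20.3 FPKM [19.3 to 21.3] in resistant cells and 9.89 FPKM [9.22 to 10.6] in wild type cells. The FPKM values were 2.05-fold apart, but the log2 ratio with the pseudocount was 0.97, just inside the 2-fold line. Serpinb9b, the next gene at 33027416 to 33041884, encodes a related rodent inhibitor. It stood at 97.9 FPKM [95.6 to 100.2] in resistant cells and 6.32 FPKM [5.75 to 6.91] in wild type cells, a 15.5-fold difference in FPKM and a log2 ratio of 3.76. Serpinb9b was thus the lower gene of the pair in wild type cells and the higher one in resistant cells. By log2 ratio it ranked 49 of the 12193 measured genes.

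The remaining Serpinb9 copies were close to silent. Serpinb9c, Serpinb9d, Serpinb9e, Serpinb9f and Serpinb9g were between 0.04 and 0.27 FPKM in resistant cells, and in wild type cells all were listed at 0 but Serpinb9c, at 0.03 FPKM. The highest of them, Serpinb9e, stood at 0.27 FPKM [0.13 to 0.48], which is about 11 fragments. Serpinb9h was listed at 0 in both libraries. These low values are uncertain, since the copies share sequence: of all 50-base windows of the longest Serpinb9f transcript, 78.7% also occur in transcripts of other genes, and for Serpinb9g and Serpinb9e the shares were 54.8% and 28.4%. For Serpinb9b the share was 5.62%, most of it with an antisense gene, Gm36099, that stood at 0.32 FPKM in resistant cells and was listed at 0 in wild type cells. For Serpinb9 it was 0.38%. The sources used here do not say how fragments were split between such copies.

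The 250 bases shown above for Serpinb9b and Serpinb9 were identical at 58.2% of alignment columns, gaps included, with a longest shared run of 13 bases. Against 18 promoters of clade b genes outside the Serpinb9 group, that of Serpinb9b was identical at 43.1% to 50.9% of such columns. The promoters of the near-silent copies Serpinb9c to Serpinb9h were between 45.9% and 49.5% identical to it. These alignments, 25 in all, were made after the values had been seen.

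The Serpinb6 group is the most abundant part of the family. Serpinb6a, at 33917918 to 34002794 on chromosome 13, encodes an intracellular inhibitor of trypsin-like and granule proteases, the mouse counterpart of human SERPINB6. It stood at 392.9 FPKM [387.3 to 398.6] in resistant cells and 350.4 FPKM [345.1 to 355.7] in wild type cells, the highest serpin in both libraries, with a log2 ratio of 0.16. Nqo2, Ripk1 and the antisense gene 1110046J04Rik overlap the span of Serpinb6a on the opposite strand. The sources used here do not say whether strand was used in counting, so fragments from any stretch of overlapping exons cannot be told apart. Of the 50-base windows of the longest Serpinb6a transcript, 1.07% occur in transcripts of other genes on either strand. The 3 overlapping genes stood at 22.9, 10.5 and 6.75 FPKM in resistant cells and at 34.9, 15.5 and 1.70 FPKM in wild type cells, far below Serpinb6a.

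Serpinb6b, at 32965209 to 32979067, encodes an inhibitor of granzyme A in mice. Its level was 68.4 FPKM [66.1 to 70.8] in resistant cells and 39.8 FPKM [38.1 to 41.6] in wild type cells, with a log2 ratio of 0.76. Serpinb6c, at 33879816 to 33905708, stood at 8.03 FPKM [6.98 to 9.15] in resistant cells and 1.29 FPKM [0.90 to 1.78] in wild type cells, with a log2 ratio of 1.98. The 3 expressed genes of this group thus differed by unlike amounts, the lowest of them most. Of the 50-base windows of Serpinb6c, 10.4% occur in transcripts of other genes, against 3.12% for Serpinb6b and 1.07% for Serpinb6a. Serpinb6d and Serpinb6e were listed at 0 in both libraries.

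Serpinb1a, at 32842092 to 32851185 on chromosome 13, encodes an inhibitor of the neutrophil proteases elastase, proteinase 3 and cathepsin G. It stood at 22.2 FPKM [20.8 to 23.7] in resistant cells and 1.59 FPKM [1.23 to 2.02] in wild type cells, a 14-fold difference in FPKM and a log2 ratio of 3.16. Its copies Serpinb1b and Serpinb1c were at 0.11 and 0.05 FPKM in resistant cells and listed at 0 in wild type cells, values that rest on 4 and 2 fragments. Serpinb1a shared 3.42% of its 50-base windows with other genes.

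The make-up of clade b was unlike in the libraries. Summed over the 28 genes, clade b stood at 619 FPKM in resistant cells and 414 FPKM in wild type cells. Serpinb6a made up 63.4% of that sum in resistant cells and 84.7% in wild type cells. Serpinb9b made up 15.8% in resistant cells and 1.53% in wild type cells. Serpinb6b made up 11% in resistant cells and 9.63% in wild type cells. Without Serpinb6a, the other 27 genes summed to 226.5 FPKM in resistant cells and 63.4 FPKM in wild type cells. The sum over all 55468 rows was also higher in the resistant library, at 1.19728e+06 FPKM against 998508 FPKM in wild type cells.

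The chromosome 1 group of clade b includes genes of squamous and other surface epithelia. Serpinb8, at 107590006 to 107610484, encodes a protein that inhibits the proprotein convertase furin in human biochemical work. It stood at 4.75 FPKM [4.34 to 5.19] in resistant cells and 0.12 FPKM [0.07 to 0.21] in wild type cells, about 487 and 13 fragments, a 38.5-fold difference in FPKM with a counting interval of 22.4 to 73.2. The log2 ratio with the pseudocount was 2.36. Serpinb7, at 107399655 to 107452689, is the mouse counterpart of a human gene whose loss causes a thickening disorder of palm and sole skin. It stood at 1.30 FPKM [0.97 to 1.70] in resistant cells and was listed at 0 in wild type cells, where a floor of 3 fragments would be 0.07 FPKM. Serpinb11, next to Serpinb7, stayed below the level filter at 0.72 FPKM [0.49 to 1.01] in resistant cells and was listed at 0 in wild type cells.

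Serpinb5, at the other end of this group at 106861173 to 106883348, encodes maspin, a serpin that does not trap proteases and is known as a tumour suppressor in breast epithelium. It stood at 1.72 FPKM [1.40 to 2.09] in resistant cells and 4.25 FPKM [3.75 to 4.80] in wild type cells. The FPKM value in resistant cells was 0.40 times that in wild type cells, and the log2 ratio was -0.95. Serpinb5 was the only clade b gene above 0 with a lower FPKM in resistant cells. Serpinb2, which encodes an inhibitor of plasminogen activators, was barely present, at 0.07 FPKM in resistant and 0.02 FPKM in wild type cells. Serpinb10, which overlaps it, was at 0.04 FPKM in resistant cells and listed at 0 in wild type cells, and Serpinb12, Serpinb13 and the 4 Serpinb3 genes were listed at 0 in both libraries.

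**Figure D2:**
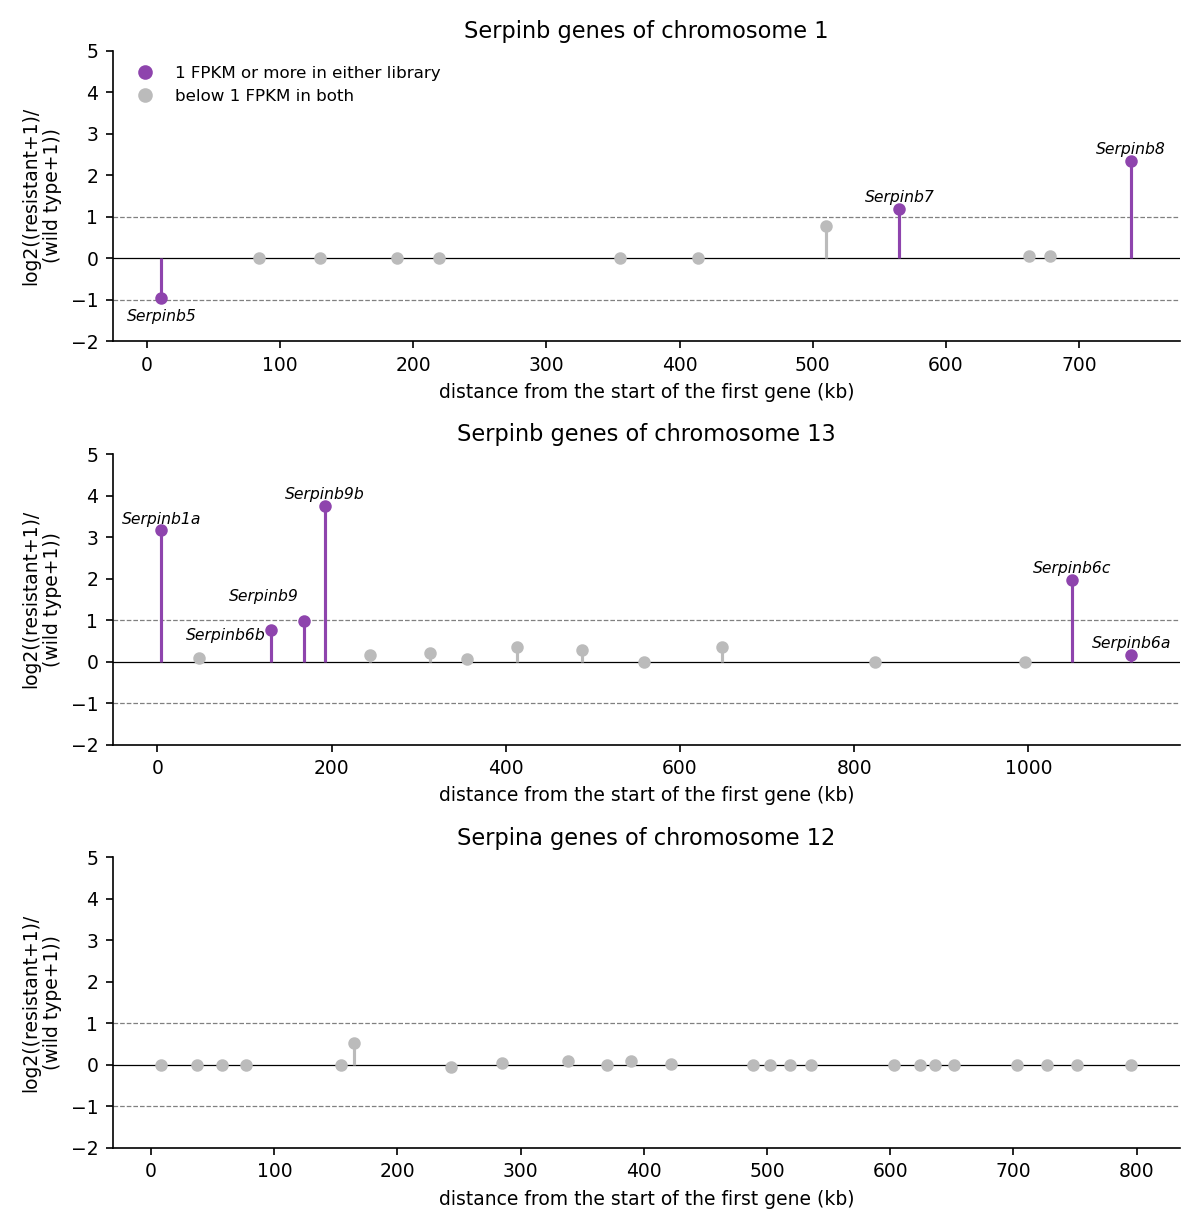
log2((resistant FPKM + 1)/(wild type FPKM + 1)) of each serpin gene against its distance in kb from the start of the first gene, for the groups on chromosomes 1, 13 and 12. Purple genes reach 1 FPKM in at least 1 library, grey genes do not, and dashed lines mark 2-fold. In both clade b groups a measured gene stands at each end and genes below 1 FPKM lie between measured ones, and the 24 clade a genes of chromosome 12 all lie below 1 FPKM.

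Counted over all clade b genes with a value above 0 in either library, 18 of 19 had the higher FPKM in resistant cells, 13 of 13 on chromosome 13 and 5 of 6 on chromosome 1. Over all gene symbols above 0 in either library that share was 49.4%. As clade b was chosen for this direction, the count describes the choice. Many of these genes rest on a few fragments. Of the 28 clade b genes, 9 were listed at 0 in wild type cells only, against 4.12% of all symbols, and none in resistant cells only, against 4.53%. These counts too come from the values by which clade b was chosen. Of all 55337 symbols, 21631 were above 0 in either library.

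The chromosome 13 group spans 1161 kb with 16 members, of which 6 were measured. The measured coding genes around it did not share 1 direction: Foxf2 stood at 5.94 FPKM in resistant cells and 20.02 FPKM in wild type cells, whereas Gmds stood at 27.4 FPKM in resistant cells and 9.90 FPKM in wild type cells. Wrnip1, the nearest on that side, had a log2 ratio of 0.20. Beyond the other end, Bphl, Tubb2a and Tubb2b had log2 ratios of 0.71, 0.12 and 0.62. Of these 6 and the 2 genes inside the group, Nqo2 and Ripk1, 1 was at least 2-fold higher, 1 lower and 6 within 2-fold, with a median log2 ratio of 0.16.

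The chromosome 1 group spans 749 kb with 12 members, of which 3 were measured. Its neighbours Bcl2, Kdsr and Vps4b on one side had log2 ratios of -0.63, -0.32 and 0.04. On the other side, Tsn, Nifk and Clasp1 follow a gap of 10684 kb, and all lay within 2-fold.

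The genes of plasminogen activation, whose proteases the products of Serpinb2 and Serpini1 can inhibit, were compared alongside. Plaur, the urokinase receptor gene, stood at 329 FPKM in resistant cells and 92.5 FPKM in wild type cells, with a log2 ratio of 1.82. Plat, which encodes tissue-type plasminogen activator, stood at 88.6 FPKM in resistant cells and 37.1 FPKM in wild type cells. Plau, which encodes urokinase, stood at 8.27 FPKM in resistant cells and 3.38 FPKM in wild type cells. All 3 were thus higher in the resistant library. Lrp1, a receptor that clears complexes of serpins and proteases, stood at 6.83 FPKM in resistant cells and 4.40 FPKM in wild type cells, within 2-fold. Of the 5 measured genes of plasminogen activation, 3 were at least 2-fold higher, none was lower and the median log2 ratio was 1.08. Over all measured genes, 7.9% were higher and 8.37% lower by at least 2-fold. The list was chosen with earlier results of these data known, so nothing is read from this count. Plg, the plasminogen gene, was listed at 0 in both libraries, and Vtn, the vitronectin gene, was at 0.12 FPKM in resistant cells and listed at 0 in wild type cells.

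**Figure D3:**
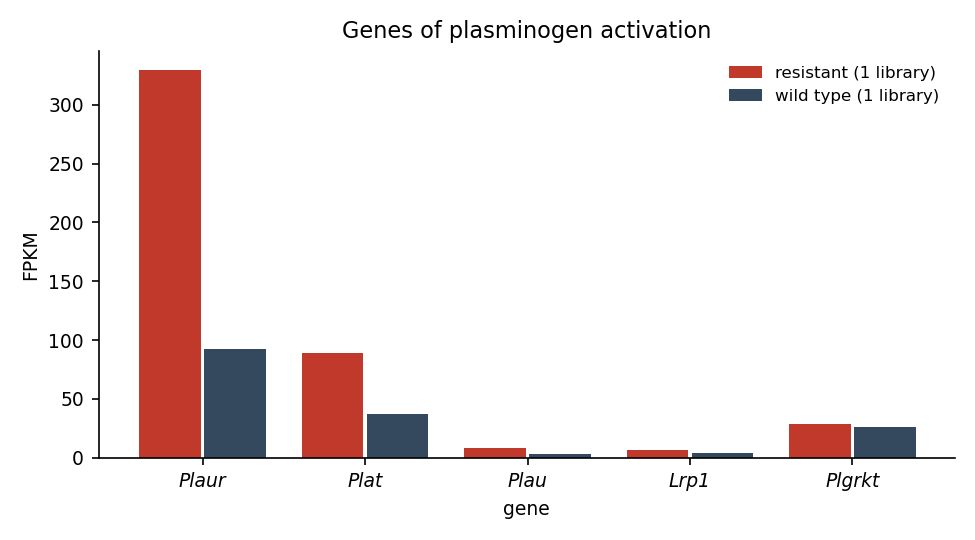
FPKM of the 5 measured genes of plasminogen activation, with the resistant library (red) left of the wild type library (dark blue), 1 library per group. Plaur, Plat and Plau are higher in resistant cells by at least 2-fold, and Lrp1 and Plgrkt lie within 2-fold.

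Serpinh1, on chromosome 7 at 99345376 to 99353239, encodes the collagen chaperone HSP47 of the endoplasmic reticulum, a serpin that inhibits no protease. It stood at 9.19 FPKM [8.37 to 10.1] in resistant cells and 25.4 FPKM [24.0 to 26.8] in wild type cells. The log2 ratio of -1.37 was the lowest of the family. Of 15 measured collagen folding enzymes, 1 was at least 2-fold higher, 1 was lower and 13 lay within 2-fold, with a median log2 ratio of 0.11. The higher one was P3h2, a prolyl hydroxylase gene (3.05 FPKM in resistant and 0.44 FPKM in wild type cells), and the lower one was Fkbp10, which encodes a collagen-binding prolyl isomerase (0.38 FPKM in resistant and 4.11 FPKM in wild type cells). The 6 nearest measured genes to Serpinh1 had a median log2 ratio of 0.36, with Mogat2 and Map6 at least 2-fold higher in resistant cells.

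**Figure D4:**
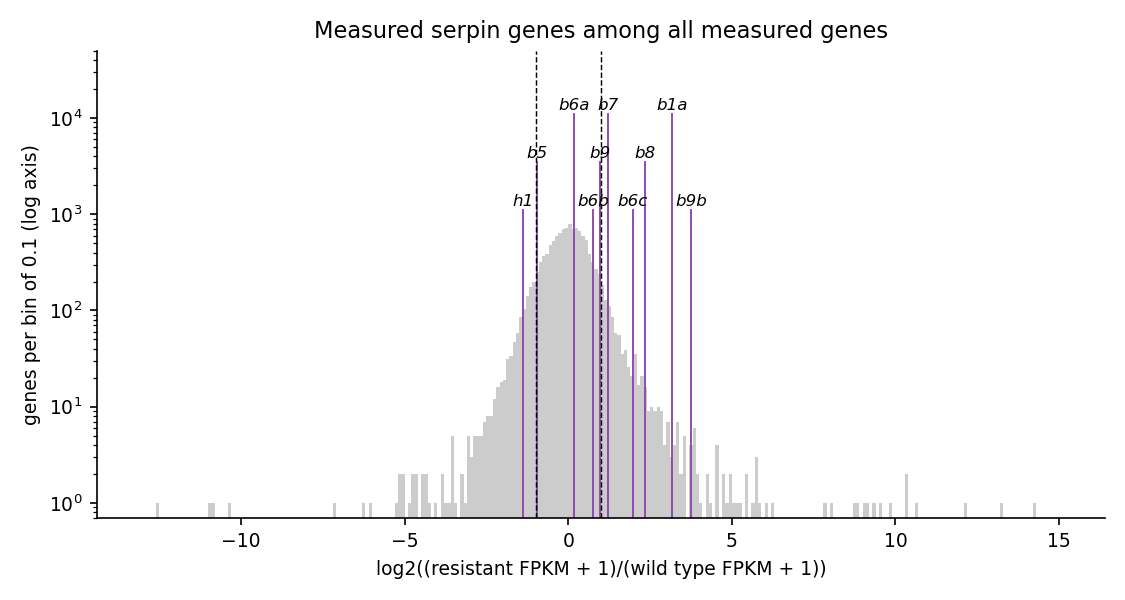
Histogram of log2((resistant FPKM + 1)/(wild type FPKM + 1)) over all 12193 measured genes (grey, log count axis), with 10 of the 11 measured serpins as purple lines, labelled without the word Serpin. Dashed lines mark 2-fold. Serpinb9b and Serpinb1a lie right of nearly all genes, Serpinh1 is the lowest serpin and Serpinb6a is near the centre.

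The plasma serpins of clade a were all but absent. In both libraries 19 of the 25 were listed at 0, and none reached 1 FPKM. The highest was Serpina1b, an alpha-1-antitrypsin gene, at 0.59 FPKM [0.37 to 0.90] in resistant cells and 0.10 FPKM [0.03 to 0.27] in wild type cells. Of its 50-base windows 35.8% occur in other genes, most often Serpina1d, which was listed at 0 in both libraries. Serpina3n, an acute-phase inhibitor gene, was listed at 0 in both libraries. The 11 hepatocyte markers, of which 4 were measured, summed to 54.3 FPKM in resistant cells and 30.6 FPKM in wild type cells. Apob made up most of this, at 52 FPKM in resistant and 23.04 FPKM in wild type cells, and Apoa1 and Ttr were lower in resistant cells. Alb was at 0.28 FPKM in resistant cells and listed at 0 in wild type cells.

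The 7 serpins of clades c, d, f, g and i were below 1 FPKM as well. Serpini1, which encodes neuroserpin, an inhibitor of tissue-type plasminogen activator, came closest to the level filter, at 0.41 FPKM [0.29 to 0.57] in resistant cells and 0.96 FPKM [0.78 to 1.19] in wild type cells. Serpinc1, the antithrombin gene, stood at 0.36 FPKM in resistant cells and 0.11 FPKM in wild type cells, but 58.8% of its 50-base windows are shared with Zbtb37. Serpinf1, Serpinf2 and Serpind1 were listed at 0 in resistant cells and at no more than 0.04 FPKM in wild type cells, values of 2 fragments or fewer. Serping1, which encodes the C1 inhibitor, was listed at 0 in both libraries, as were Serpine3 and Serpine2, which encodes protease nexin 1, an inhibitor of thrombin and urokinase.

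The proteases that clade b serpins guard against were set beside them. Of 11 granule serine protease genes in the table, none reached 1 FPKM in either library, and 8, among them Gzmb, Gzma, Elane, Prtn3 and Ctsg, were listed at 0 in both. Cma1 came closest to the level filter, at 0.99 FPKM in resistant cells and 0.09 FPKM in wild type cells. Of 13 leukocyte markers, 6 were listed at 0 in both libraries and 2 were measured. All 13 summed to 7.77 FPKM in resistant cells and 1.63 FPKM in wild type cells. Most of this was Cd68, at 5.48 FPKM in resistant and 1.17 FPKM in wild type cells. The other measured marker was Lyz2, at 1.53 FPKM in resistant and 0.36 FPKM in wild type cells. The pan-leukocyte gene Ptprc and Ly6g were at 0.23 and 0.50 FPKM in resistant cells and listed at 0 in wild type cells. Adgre1, Itgam and Csf1r had the lower FPKM in resistant cells. Any part of leukocytes in the levels of Serpinb1a, Serpinb9 and Serpinb9b was not tested. Of 10 measured cathepsin and legumain genes, 9 lay within 2-fold and Ctse was lower in resistant cells, at 15.4 FPKM against 92.4 FPKM in wild type cells. Furin, the convertase named with Serpinb8, stood at 26.7 FPKM in resistant cells and 39.3 FPKM in wild type cells, within 2-fold.

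Protease inhibitors of other families were set beside the serpins. Of 12 measured genes, Tfpi was at least 2-fold higher in resistant cells, Ambp and Itih2 were lower and 9 lay within 2-fold, with a median log2 ratio of 0.08. Ambp, which encodes the Kunitz inhibitor bikunin, stood at 0.77 FPKM in resistant cells against 27.97 FPKM in wild type cells. Of 20 squamous epithelium markers, 9 were measured, and of these 2 were at least 2-fold higher and 2 were lower in resistant cells. The others stayed below 1 FPKM in both libraries, among them Trp63. Krt5, Krt6b, Krt17 and Dsc3 were listed at 0 in both. Krt14 stood at 46.99 FPKM in resistant cells and 8.51 FPKM in wild type cells, and Sprr1a at 1789 FPKM in resistant cells and 411 FPKM in wild type cells. Ivl and Ppl were the lower ones, Ppl at 8.84 FPKM in resistant cells and 20.5 FPKM in wild type cells. The 9 measured markers had a median log2 ratio of 0.14. The summed level of all 20, 1858 FPKM in resistant and 455 FPKM in wild type cells, was mostly Sprr1a. The relation of these markers to Serpinb7, Serpinb8 and Serpinb5 was not tested.

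Promoter windows were found for 54 of the 64 members and for 9 of the 11 measured ones, with none for Serpinb1a, and Serpinb6a has 2 windows. In the 250 bases before the start, 9 motifs were searched on both strands: the TATA box TATAAA, the box CCAAT, the GC box GGGCGG, the AP-1 motif TGANTCA, the cyclic AMP response element TGACGTCA, the CEBP-ATF element TGATGCAA, the heat shock element GAANNTTC, the TEAD motif GGAATG and NF-kB. The motifs were chosen after the values had been seen, and no match in these genes overlaps another. AP-1 factors are dimers of Jun and Fos proteins. The AP-1 letters were present in the windows of Serpinb7, Serpinb8 and Serpinb5, which is 3 of the 10 windows of measured members. Among the 63 windows of all members, 12 held them, and so did 6.75% of all 32851 promoter windows. Counted from the start, the match began at position -45 in Serpinb7, -23 in Serpinb8 and -140 in Serpinb5, so the letters stood both at genes that were higher and at one that was lower in resistant cells. In Serpinb7 TATAAA was found on the reverse strand at positions -239 and -33, and 12.4% of all windows hold one. GGGCGG was found for Serpinb5, Serpinb6a, Serpinb6b, Serpinb6c and Serpinh1, and in 32.7% of all windows. Serpinb5 also holds CCAAT, found in 33.8% of all windows, and the heat shock letters, found in 6.69%. CCAAT was found for Serpinb6a too, as were the TEAD letters (12.6% of all windows). The CEBP-ATF letters were found for Serpinb6c (0.791%) and NF-kB for Serpinh1 (7.25%), and the cyclic AMP response element, in 1.55% of all windows, for no measured member. A match is a description of letters, and binding was not measured.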

How the data were processed

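RNA from 1 gemcitabine-resistant and 1 wild type KPC2 library was compared. HISAT2, StringTie and GRCm38 are named in the submitters' processing notes, with no role or version. The deposited table names no unit for its 2 columns of levels. They were taken as FPKM computed by the authors, because low values of genes with 1 transcript of 1000 to 8000 bases, times length less a fitted 160 bases, fell within 0.1 of whole fragments for 93.8% (resistant) and 92.8% (wild type) of values up to 5.5 fragments. Per the file headers, each gene also has a log2 fold change, a test statistic (a score), a p-value and a q-value.

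One fragment was worth 0.0431 FPKM (resistant) and 0.0417 FPKM (wild type) per kb of that reduced length. These steps minimise the median distance from a whole number, a criterion adopted after the values had been seen. The criterion tried first, the highest share within 0.1 of a whole number, gave 0.0438 and 0.0424 FPKM for the same libraries. The steps kept are also those of an earlier account of these data, and the choice bears only on fragment numbers and counting intervals.

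Rows that share a symbol were added up. Left out were 13 rows marked in the table as failed or too deep, none a serpin. Fragments and shared windows were derived from the longest transcript in GENCODE M21 (GRCm38), and fragment numbers can be too high where a shorter one is expressed. Measured members are named, and of each other list up to 4 genes at least 2-fold apart and at 5 FPKM or more, with Plau, Plat, Plaur and Lrp1. Other genes outside the family were named by position or after their values were seen. Some genes that these rules take are not reported here, although the counts include them. A cluster is a run of members with gaps under 1 Mb, given with the 3 nearest measured coding genes on each side. Members and lists were chosen with earlier results of these data known. Alternatives changed the pseudocount, the level filter, the scaling, the threshold and the treatment of repeated symbols. The steps were tested on simulated data. Software was Python 3.11.15 (numpy 2.4.6, pandas 2.3.3, scipy 1.17.1, with matplotlib 3.10.9 for figures).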

Additional observations from a re-analysis of the deposited data

How the results depend on the processing

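Over the alternatives of pseudocount, level filter, scaling, threshold and row choice, 4 to 7 serpins were past the threshold on the higher side (7 with a pseudocount of 0.1, where Serpinb9 joined), and none of the 11 measured genes changed sign. The count of lower members was 2 with a pseudocount of 0.1 and with the resistant library rescaled to the same upper quartile, where Serpinb5 joined Serpinh1, and 0 at a 4-fold threshold. The share of all genes past the threshold moved as well: 10.8% were higher and 12.7% lower with a pseudocount of 0.1, 3.51% and 2.44% with 5, 6.71% and 9.70% with upper-quartile rescaling, and 1.80% and 1.05% at 4-fold. With no level filter these shares were 4.45% and 4.72%, and with a filter of 5 FPKM 7.76% and 7.84%. With a pseudocount of 5, and with a filter of 5 FPKM, 4 members were higher and Serpinb7 and Serpinb8 were not among them. The median log2 ratio, 1.20 both for all measured serpins and for clade b, was 2.54 for both with a pseudocount of 0.1, 0.76 for both with a pseudocount of 5 and 1.47 for both with a filter of 5 FPKM. With no level filter it was 0.16 for all serpins above 0 and 0.34 for clade b, since near-silent genes entered. Among single genes, the log2 ratio of Serpinb8 ranged between 0.93 and 4.44 and that of Serpinb7 between 0.33 and 3.80, with a pseudocount of 5 at the low end and 0.1 at the high end. No paired analysis was possible because each group has 1 library, and no replicate could be left out. Depth limits the 53 members below 1 FPKM, where a difference was not detectable for those that rest on a few fragments.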

Other observations

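The deposited table also holds 5 serpin pseudogenes that the naming rule leaves out, and all were listed at 0 in both libraries. Among 7 measured caspase genes, Casp4, which encodes an inflammatory caspase, was at least 2-fold higher in resistant cells, at 6.58 FPKM against 0.06 FPKM in wild type cells, and the other 6 lay within 2-fold. Of 3 measured membrane serine protease and kallikrein genes, Prss23, a secreted serine protease gene, stood at 17.9 FPKM in resistant cells and 0.61 FPKM in wild type cells. None of 7 measured coagulation and complement genes was 2-fold apart. Of 9 measured ductal markers, Krt7 was at least 2-fold higher in resistant cells (32.6 FPKM, against 7.56 FPKM in wild type cells) and Sox9 was lower (1.88 FPKM in resistant cells, against 8.19 FPKM in wild type cells). The only measured acinar marker, Cela1, stood at 1.48 FPKM in resistant cells and 4.38 FPKM in wild type cells.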
